A study of Rattus norvegicus with 304 samples.

Results

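Fdft1 and Mug1 are 2 of the 49 targets whose fold changes were deposited for rat liver from the OpenArray platform, which runs preloaded real-time PCR assays in through-holes of nanolitre volume. They were chosen by gene symbol, over every strain, time and dose, because earlier results of these data had shown both low at late times after the dioxin TCDD. The choice thus used the time arm at 100 µg/kg, which is described here with no test, and its group at 19 h is also 1 of the dose groups. Each gene has a value in all 36 groups, 72 values of the 1759 deposited for the platform. The 39 targets of the second platform, the 7900HT, hold neither gene, so no other instrument measured them here.

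The animals were male Long-Evans rats, described by the submitters as sensitive to TCDD, and male Han/Wistar rats, described as resistant, aged 10 to 12 weeks. Each received TCDD or corn oil, the vehicle, as a single oral gavage. In the time arm Long-Evans rats given 100 µg/kg were sampled at 3, 6, 10, 19, 96 and 240 h and their corn oil controls at 19, 96 and 240 h. Han/Wistar rats given 100 µg/kg were sampled at 1.5, 3, 6, 10, 19, 96, 240 and 384 h and their controls at 1.5, 19, 96, 240 and 384 h. The dose arm at 19 h held 0.001, 0.01, 0.1, 1, 10, 100 and 1000 µg/kg in both strains, 50 µg/kg in Long-Evans and 3000 µg/kg in Han/Wistar. The labels give 150 OpenArray samples, 3 to 7 in a group. The deposited table has 1 value per gene and group, set against that strain's corn oil group at 19 h, which is 0 for every gene. It is read as a log2 fold change, although no header states the base. Neither the spread over animals nor the template count of a value is known. As a check of the treatment, Cyp1a1, the classical target of the TCDD receptor AHR, was at 9.29 in Long-Evans livers 240 h after TCDD, against 0.51 after corn oil, and at 9.84 against 1.27 in Han/Wistar livers, in the authors' deposited table. Hepatocyte markers and the markers of other liver cells that were listed for a check of the tissue were on neither platform.

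Fdft1 encodes squalene synthase, which joins farnesyl diphosphate units into squalene and so commits the mevalonate pathway to sterols. Its transcription is driven by SREBP-2 when hepatocytes lack sterol. Mug1 encodes alpha-1-inhibitor III, a monomeric relative of alpha-2-macroglobulin that rat hepatocytes secrete into plasma in large amounts, where it traps proteases. In the rat it is a negative acute-phase protein, which means that its synthesis falls in inflammation. Of the 28 other genes listed for sterol synthesis and its control, the 9 listed for the alpha-macroglobulin family and the 15 listed for plasma proteins, 0 were on either platform. The 2 genes are therefore the only readings of their pathways.

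RefSeq holds a neighbouring gene on rat chromosome 4, Mug1l1, that shares the older symbol A1i3 with Mug1. The assays were Rn00570323_m1 for Fdft1, a gene on chromosome 15, and Rn01641846_m1 for Mug1. The deposited files give them by name alone, so whether the Mug1 assay also reads transcripts of Mug1l1 is not known, and the Mug1 values below carry that uncertainty. The promoters of both genes are shown because they let the copies be compared and searched for the AHR core motif. They run from 250 bases before the annotated start to 50 after it, in RefSeq's GRCr8, on the plus strand, at chr4:156748145-156748444 for Mug1 and chr4:156652123-156652422 for Mug1l1. The sources used here name no build for the PCR data. Capitals mark the CCAAT motif, which lies on the opposite strand and so reads ATTGG.
Mug1: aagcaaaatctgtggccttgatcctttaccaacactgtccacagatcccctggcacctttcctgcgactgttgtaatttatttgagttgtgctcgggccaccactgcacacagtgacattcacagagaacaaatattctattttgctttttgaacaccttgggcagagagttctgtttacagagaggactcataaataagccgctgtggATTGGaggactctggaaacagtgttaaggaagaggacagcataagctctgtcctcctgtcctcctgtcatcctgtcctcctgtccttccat
Mug1l1: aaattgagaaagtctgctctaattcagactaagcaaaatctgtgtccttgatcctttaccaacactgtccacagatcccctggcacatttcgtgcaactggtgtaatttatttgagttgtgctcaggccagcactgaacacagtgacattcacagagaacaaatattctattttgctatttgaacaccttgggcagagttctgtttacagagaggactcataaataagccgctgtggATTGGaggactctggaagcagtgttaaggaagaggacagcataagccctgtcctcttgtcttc
Over 270 aligned bases 257 were the same, or 95.2%. Both windows held 1 CCAAT motif, searched on both strands like the others, as did 37.5% of all 33469 promoter windows by at least 1. GCGTG, the core of the AHR response element, was in neither window and in 29.7% of all windows. The STAT-type motif TTCNNNGAA was in neither and in 8.87% of all. A missing motif says only that these letters are not in this window. The promoter of Fdft1 was not used here.

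The late low after TCDD that led to the choice of these genes was seen in Long-Evans for both, and for Mug1 in Han/Wistar the deposited values went against it. At 240 h Fdft1 stood at -2.38 in TCDD livers, against -0.21 in corn oil livers, of Long-Evans rats in the authors' deposited table. Mug1 stood there at -1.36 in TCDD livers, against 0.65 in corn oil livers, in the authors' deposited table. The differences, TCDD minus corn oil at 240 h, were -2.17 for Fdft1 and -2.00 for Mug1. Read as log2, they leave 22.3% and 24.9% of the corn oil level. In Han/Wistar the same differences were -0.42 for Fdft1 and 0.56 for Mug1, and Mug1 lay on the other side of corn oil there. The Fdft1 value became -1.42 with group means and -0.82 with group medians as the centre, and -0.85 against corn oil at 19 h, each above the Long-Evans value of the same kind (-3.85, -3.15 and -2.38). That positive sign of Mug1 became -0.44 with the mean of each group's targets as its zero, and 0.15 with their median. Bulk liver cannot tell fewer hepatocytes from less RNA in each hepatocyte.

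Both genes were among the lowest targets in Long-Evans at 240 h. Of the 49 targets 8, or 16.3%, lay over 1 log2 unit below corn oil of that time, and both members were among them, Fdft1 the third lowest and Mug1 the fourth. The rule that chose the genes used this contrast, so the share is given as a description. In Han/Wistar at 240 h 8.16% of targets lay that far below corn oil, and 0 of the 2 genes did. The same held for 0 of the 2 at 96 h, where 14.3% of Long-Evans and 2.04% of Han/Wistar targets lay that low, and at 384 h in Han/Wistar, where 6.25% did. The panel as a whole was shifted upward after TCDD: at 240 h the median difference over all targets was 1.09 for Long-Evans and 0.55 for Han/Wistar. Relative to that median, in Long-Evans Fdft1 lay at -3.25 and Mug1 at -3.09, and in Han/Wistar Fdft1 lay at -0.97 and Mug1 at 0.0044. Mug1 in Han/Wistar thus sat at the middle of the panel, and Fdft1 below the middle in both strains.

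**Figure D1:**
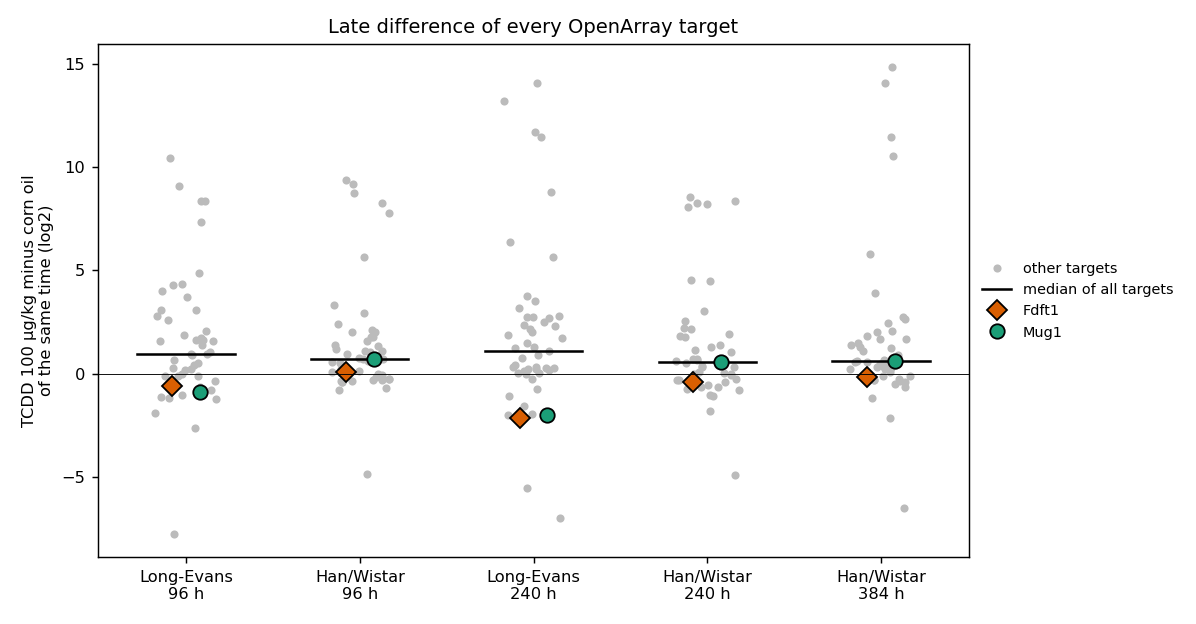
Difference between TCDD at 100 µg/kg and corn oil of the same strain and time for every OpenArray target (y axis, log2), by strain and time (x axis); each point is 1 target, the black bar is the median of all targets, and there are no replicates to draw an error from. In Long-Evans at 240 h Fdft1 (-2.17) and Mug1 (-2.00) lie near the bottom of the panel, while in Han/Wistar Mug1 lies on the median bar at 96, 240 and 384 h.

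For Fdft1 the time course in Long-Evans had an early low, a partial return and a deeper late low. After 100 µg/kg it stood at -0.97 (3 h), -0.98 (6 h), -0.42 (10 h), -0.61 (19 h), -0.75 (96 h) and -2.38 (240 h) in the authors' deposited table. Corn oil groups stood at 0.00 (19 h), -0.17 (96 h) and -0.21 (240 h) in the authors' deposited table. All 6 TCDD groups lay below all 3 corn oil groups, and the groups did not overlap, as for 8 of the 49 targets (16.3%), Inmt, Fmo1, Hagh, Ivns1abp and Ghr among them. Against same-time corn oil the difference was -0.61 (19 h), -0.58 (96 h) and -2.17 (240 h), so most of the late depth appeared between 96 and 240 h.

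In Han/Wistar 6 of the 8 TCDD groups lay within the range of the corn oil groups for Fdft1, with 3 h below it and 10 h above it. The share of all targets with such a count is not given here, so the count is not read as a trait of Fdft1. After 100 µg/kg it stood at -0.46 (1.5 h), -1.36 (3 h), -0.82 (6 h) and 0.10 (10 h) in the authors' deposited table. At the later times it stood at -0.56 (19 h), -0.43 (96 h), -0.85 (240 h) and -0.53 (384 h) in the authors' deposited table. The corn oil groups stood at -1.06 (1.5 h), 0.00 (19 h), -0.50 (96 h), -0.43 (240 h) and -0.39 (384 h) in the authors' deposited table. The lowest of all 20 Han/Wistar groups was TCDD at 3 h and the next was corn oil at 1.5 h, which had received no TCDD. The differences from corn oil of the same time were 0.59 (1.5 h), -0.56 (19 h), 0.07 (96 h), -0.42 (240 h) and -0.15 (384 h), and the sign at 96 h turned to -1.14 with group means and to -0.57 with group medians as the centre. No late TCDD group of Han/Wistar lay below the range of the corn oil groups. That range reached -1.06 through the 1.5 h group alone, a time at which Long-Evans had no corn oil group. The other Han/Wistar corn oil groups ran from -0.50 to 0.00. TCDD at 3, 6, 19, 240 and 384 h lay below those, and TCDD at 1.5, 10 and 96 h did not. The ranges of the 2 strains are therefore not alike.

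At 3 h Fdft1 was the lowest of the panel in both strains, with another target, Sdc1, almost level with it. Fdft1 was the lowest of 49 targets at 3 and 6 h in Long-Evans and at 3 h in Han/Wistar, where it was the second lowest at 6 h. The authors' deposited table puts Sdc1 in Long-Evans at -0.958 (3 h) and -0.980 (6 h), against -0.972 and -0.983 for Fdft1. For Han/Wistar it gives Sdc1 -1.3605 (3 h) and -0.828 (6 h), against -1.3616 and -0.824 for Fdft1. These gaps were smaller than the corn oil SD of Fdft1, 0.11 in Long-Evans and 0.38 in Han/Wistar. The early low was therefore not particular to Fdft1. No corn oil group was sampled at 3, 6 or 10 h, so TCDD and time after dosing cannot be told apart there. Corn oil at 1.5 h in Han/Wistar shows how far a group without TCDD could lie from corn oil at 19 h: for Fdft1 it was -1.06, against a panel median of -0.33 in that group, in the authors' deposited table.

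For Mug1 the strains lay apart at 3 h and again at the late times. In Long-Evans it stood at -0.07 (3 h), 0.12 (6 h), -0.52 (10 h), -0.73 (19 h), -0.35 (96 h) and -1.36 (240 h) after 100 µg/kg in the authors' deposited table. Corn oil groups of Mug1 stood at 0.00 (19 h), 0.52 (96 h) and 0.65 (240 h) in the authors' deposited table. The difference from corn oil of the same time was -0.73 (19 h), -0.87 (96 h) and -2.00 (240 h). TCDD at 6 h lay inside the corn oil range and the other 5 TCDD groups below it. The lower end of that range was the 19 h group, which is 0 by construction. The 3 h group lay below it by less than the corn oil SD of 0.34. The share of all targets with such a count is not given here. A part of the late difference came from the corn oil groups, which were 0.65 higher at 240 h than at 19 h: against corn oil at 19 h the 240 h value is -1.36 and not -2.00.

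In Han/Wistar the Mug1 values after 100 µg/kg were -0.25 (1.5 h), -0.85 (3 h), 0.25 (6 h) and -0.13 (10 h) in the authors' deposited table. They were -0.97 (19 h), 0.37 (96 h), 0.025 (240 h) and 0.22 (384 h) in the authors' deposited table. The corn oil groups stood at -0.37 (1.5 h), 0.00 (19 h), -0.32 (96 h), -0.53 (240 h) and -0.41 (384 h) in the authors' deposited table. All 3 TCDD groups after 19 h lay above the whole corn oil range, as for 55.1% of targets. Their differences from same-time corn oil were 0.69 (96 h), 0.56 (240 h) and 0.63 (384 h). At these times 71.4%, 67.3% and 72.9% of all targets were also above corn oil, and with group means as the centre the 3 differences turned to -0.53, -0.44 and -0.82. Only TCDD at 3 and 19 h lay below the corn oil range of Mug1, and the share of all targets with such a count is not given here.

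**Figure D2:**
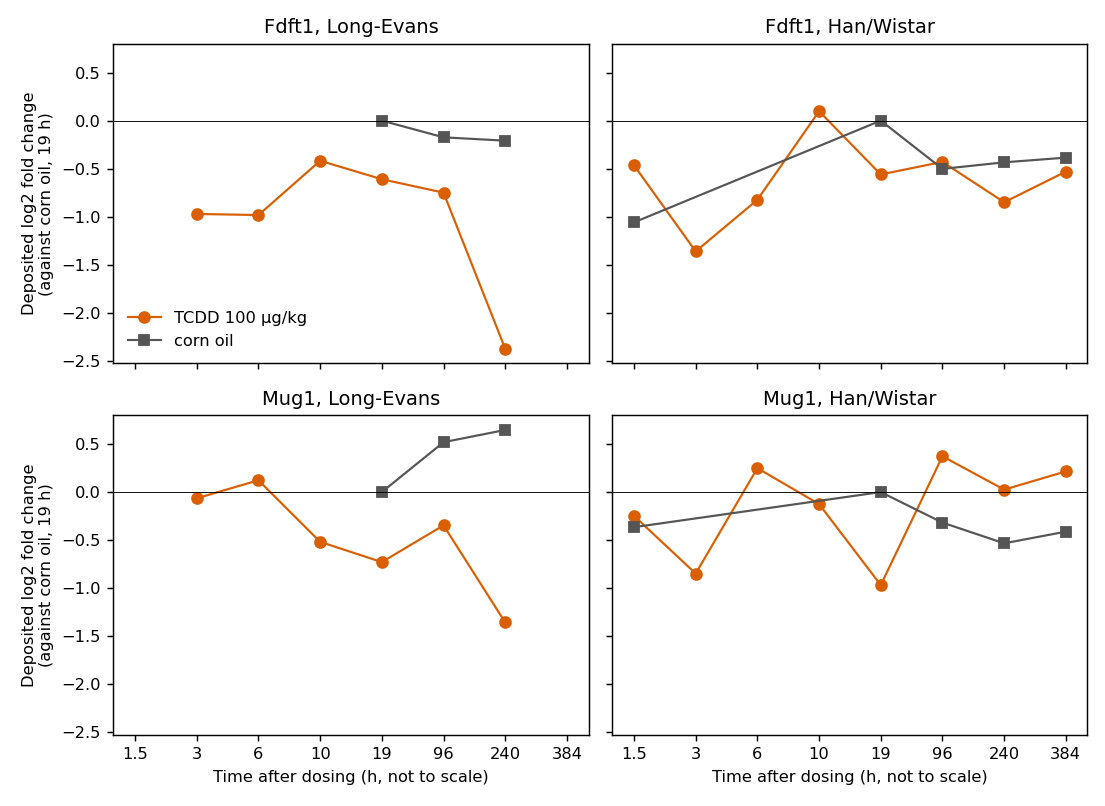
Deposited log2 fold change with the strain's own 19 h corn oil group as 0 (y axis) for Fdft1 (top) and Mug1 (bottom) in Long-Evans (left) and Han/Wistar (right) over time after dosing (x axis, h, evenly spaced and not to scale); each point is 1 group value, with TCDD at 100 µg/kg as circles and corn oil as squares. At 240 h the TCDD groups of Long-Evans reach -2.38 for Fdft1 and -1.36 for Mug1, while Mug1 in Han/Wistar lies above corn oil from 96 h on, a sign that turns with group means as the centre.

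The dose arm asks whether the genes already respond at 19 h and from which dose. It shares the groups at 100 µg/kg and corn oil at 19 h with the time arm. Fdft1 in Long-Evans stood at 0.14, 0.04, -0.70, -0.20, -0.78, -0.89, -0.61 and -0.74 at 0.001, 0.01, 0.1, 1, 10, 50, 100 and 1000 µg/kg in the authors' deposited table. From 10 µg/kg up, every group lay below the lowest corn oil group of any time (-0.21), as for 34.7% of targets. The group at 0.1 µg/kg lay below it too, and that at 1 µg/kg missed it narrowly (-0.202 against -0.209), so 10 µg/kg is not a threshold dose. In Han/Wistar Fdft1 stood at 0.14, -0.04, -0.33, -0.42, -0.84, -0.56, -0.53 and -0.43 at 0.001, 0.01, 0.1, 1, 10, 100, 1000 and 3000 µg/kg in the authors' deposited table. Of the 8 groups 0 lay below the corn oil range, whose lower end was the 1.5 h group at -1.06. The group at 0.001 µg/kg lay above its upper end of 0.00, and the others lay inside it. The corn oil groups of the other times ran from -0.50 to 0.00, and Fdft1 at 10, 100 and 1000 µg/kg lay below those. Long-Evans had no corn oil group at 1.5 h, so the ranges of the 2 strains are not alike. The share of all targets with such counts in Han/Wistar is not given here. The lowest Fdft1 value in Han/Wistar was at 10 µg/kg and not at the top dose.

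Mug1 was low from the lower doses on. In Long-Evans it stood at 0.21, -0.57, -1.02, -0.83, -1.07, -1.02, -0.73 and -1.22 at 0.001, 0.01, 0.1, 1, 10, 50, 100 and 1000 µg/kg in the authors' deposited table. The 7 groups from 0.01 µg/kg up lay below all corn oil groups, as for 14.3% of targets, and from 0.1 to 1000 µg/kg the values stayed between -1.22 and -0.73. In Han/Wistar it stood at -1.05, -0.97, -0.58, -1.23, -1.39, -0.97, -1.52 and -1.99 at 0.001, 0.01, 0.1, 1, 10, 100, 1000 and 3000 µg/kg in the authors' deposited table. All 8 lay below the corn oil range (lowest -0.53), as for 2 of the 47 targets with a value in every dose group (4.26%), including the dose of 0.001 µg/kg, at which Cyp1a1 stood at 0.92, inside its own corn oil range of -1.48 to 3.47, in the authors' deposited table. At that dose Mug1 was the second lowest of 49 targets, against a panel median of -0.13.

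The trend with dose was tested by Spearman's rho of the deposited value against log10 dose, with a two-sided exact permutation test over the 8 groups and Benjamini-Hochberg adjustment over the 49 targets. Neither gene passed over all 8 groups in either strain, but all 4 trends passed without the group at 100 µg/kg, which belongs to the time arm that chose the genes. For Fdft1 the rho over 8 groups was -0.69 in Long-Evans (exact permutation p = 0.0694, adjusted 0.0756) and -0.76 in Han/Wistar (exact permutation p = 0.0368, adjusted 0.0563). For Mug1 it was -0.71 in Long-Evans (exact permutation p = 0.0576, adjusted 0.0656) and -0.62 in Han/Wistar (exact permutation p = 0.115, adjusted 0.137). Over the 7 groups that the choice did not use, in Long-Evans the rho was -0.86 for Fdft1 (exact permutation, adjusted p = 0.0307) and -0.93 for Mug1 (exact permutation, adjusted p = 0.0138). In Han/Wistar it was -0.86 for both genes over those 7 groups (exact permutation, adjusted p = 0.0417 for each). There 32.7% of targets passed as lower in Long-Evans, against 20.4% in Han/Wistar. Over all 8 groups 13 targets (26.5%) passed as lower with dose in Long-Evans and 10 (20.4%) in Han/Wistar, among them Inmt, Fmo1 and Ugt1a1 in both. All 4 coefficients were negative, while the median rho over the targets was 0.79 in Long-Evans and 0.64 in Han/Wistar.

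These calls lay close to the threshold and turned with the groups and the measure. With corn oil at 19 h added as the lowest dose all 4 passed, at adjusted exact permutation p = 0.0339 for Fdft1 and 0.0211 for Mug1 in Long-Evans, and at 0.0211 for Fdft1 and 0.0424 for Mug1 in Han/Wistar. That added group is 0 by construction and belongs to the time arm that chose the genes. The dose group shared with that arm was also kept. These 4 passes are therefore not independent of the choice. Pearson's r against log10 dose was -0.81 for Fdft1 (exact permutation p = 0.0200, adjusted 0.0234) and -0.77 for Mug1 (exact permutation p = 0.0129, adjusted 0.0171) in Long-Evans, past the threshold. In Han/Wistar it was -0.74 for Fdft1 (exact permutation p = 0.0337, adjusted 0.05005) and -0.70 for Mug1 (exact permutation p = 0.0493, adjusted 0.0639), short of it. In Long-Evans 0.001 µg/kg lies farthest from the median dose on the log scale, and 0.01 and 1000 µg/kg tie for the next place. Without 0.001 and 0.01 µg/kg r was -0.38 for Fdft1 and -0.26 for Mug1, and without 0.001 and 1000 µg/kg it was -0.70 for Fdft1 and -0.40 for Mug1. Without 0.001 and 3000 µg/kg in Han/Wistar r was -0.71 for Fdft1 and -0.64 for Mug1. When each group was centred on its median, which rises with dose, the rho was -0.88 for Fdft1 and -0.90 for Mug1 in Long-Evans, and in Han/Wistar -0.79 for Fdft1 and -0.83 for Mug1. With those centred values all 4 passed, at adjusted exact permutation p = 0.0142, 0.00972, 0.0441 and 0.0279. Taking away a median that rises with dose pulls the trend of every target down. The count of targets lower with dose went to 17 in each strain. These passes therefore place the genes relative to the panel and cannot show a fall of their own.

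**Figure D3:**
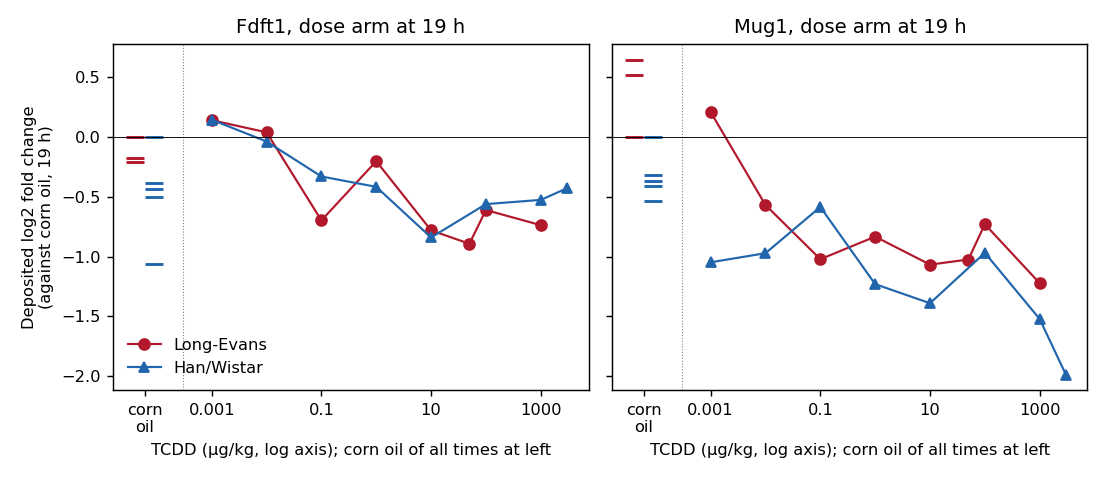
Deposited log2 fold change with the strain's own 19 h corn oil group as 0 (y axis) for Fdft1 (left) and Mug1 (right) at 19 h against TCDD dose (x axis, µg/kg, log axis), with Long-Evans as circles and Han/Wistar as triangles; the short bars at the left are the corn oil groups of every time, and each point is 1 group value. Mug1 in Han/Wistar already lies at -1.05 at 0.001 µg/kg and reaches -1.99 at 3000 µg/kg. Fdft1 in Han/Wistar does not fall below its corn oil range, which reaches -1.06 through the 1.5 h group alone. At 10, 100 and 1000 µg/kg Fdft1 there lies below the other corn oil groups.

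At 19 h the Han/Wistar value was subtracted from the Long-Evans value at each of the 7 shared doses to compare the strains. For Fdft1 the difference ran from -0.37 at 0.1 µg/kg to 0.21 at 1 µg/kg. For Mug1 it was 1.26 at 0.001 µg/kg, -0.44 at 0.1 µg/kg and between 0.24 and 0.40 at the other 5 doses. The rho of the difference against log10 dose was -0.29 for Fdft1 (two-sided exact permutation p = 0.556, adjusted 0.861) and -0.61 for Mug1 (two-sided exact permutation p = 0.167, adjusted 0.471), over 48 targets tested, of which 0% passed and 5 had an unadjusted p under 0.05. Without 100 µg/kg the rho was -0.086 for Fdft1 (exact permutation, adjusted p = 0.982) and -0.66 for Mug1 (exact permutation, adjusted p = 0.494). A strain difference that is the same at every dose cannot be seen by this test.

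The gap between the strains was wide at 240 h, where it is a description because the genes were chosen on it. Long-Evans minus Han/Wistar of the difference between TCDD and corn oil was -0.65 for Fdft1 and -1.56 for Mug1 at 96 h, and -1.75 and -2.56 at 240 h. Of 49 targets 12.2% at 96 h and 14.3% at 240 h had a gap over 1 log2 unit on the lower side. At 240 h Mug1 had the second lowest gap and Fdft1 the fourth, next to Fmo1, a flavin monooxygenase of drug metabolism, with the lowest at -3.74, and Inmt, an indolamine methyltransferase, with -2.07. The corn oil groups of Mug1 had also moved apart, by 1.18 at 240 h, so that the TCDD groups alone differed by -1.38. For Fdft1 the corn oil groups differed by 0.23 and the TCDD groups by -1.53.

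The nearest comparators, other targets that lay below corn oil after TCDD, differed in how they were divided between strains. At 240 h the difference between TCDD and corn oil was -6.97 for Inmt in Long-Evans, against -4.90 in Han/Wistar. For Fmo1 it was -5.53 and -1.78 in the same order of strains. For Ugt1a1, a bilirubin and drug glucuronidating enzyme, it was 0.33 in Long-Evans, against -0.25 in Han/Wistar. Inmt, Fmo1 and Fdft1 were thus below corn oil in both strains at 240 h, and Mug1 in Long-Evans alone. Inmt and Fmo1 were below it by over 1 log2 unit in both strains, and Fdft1 and Mug1 in Long-Evans alone. That last split was not particular to the 2 genes. Hagh (-1.99 in Long-Evans, -0.72 in Han/Wistar), Ghr (-1.57 and -0.32) and Slco1a1 (-1.10 and -0.54) had it too. With group means as the centre, Fdft1 in Han/Wistar was over 1 log2 unit below corn oil too (-1.42), and Mug1 was below it (-0.44). With group medians Fdft1 there was below it by less than 1 log2 unit (-0.82), and Mug1 was above it (0.15).

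Among the other targets of the panel, the one whose pattern was most like Fdft1 was Hagh, which encodes the glyoxalase II enzyme that breaks down a glutathione conjugate of methylglyoxal. Spearman's rho over the groups other than corn oil at 19 h was 0.79 over 15 groups in Long-Evans and 0.72 over 19 in Han/Wistar. Sdc1, a heparan sulfate proteoglycan of the cell surface, came next with 0.39 and 0.66, and Ivns1abp, an actin-binding kelch protein, followed with 0.64 and 0.23. At 240 h Hagh stood at -2.15 after TCDD, against -0.16 in corn oil, in Long-Evans, while in Han/Wistar it was at -0.81 after TCDD, against -0.09 in corn oil, again in the authors' deposited table. Hagh shared both the early and the late low of Fdft1 in Long-Evans, with -0.58 at 3 h and -0.63 at 6 h in the authors' deposited table.

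The target most like Mug1 was Ghr, the growth hormone receptor, with a rho of 0.90 in Long-Evans and 0.54 in Han/Wistar. Col18a1, the chain of collagen XVIII, followed with 0.78 and 0.59, and Tpm1, a tropomyosin of actin filaments, with 0.32 and 0.76. At 240 h Ghr stood at -1.59 after TCDD, against -0.02 in corn oil, in Long-Evans, while in Han/Wistar it was at -0.32 after TCDD, against 0.00 in corn oil, again in the authors' deposited table. Ghr differed from Mug1 in Han/Wistar, where its TCDD groups at 240 and 384 h lay below its corn oil groups and those of Mug1 above, except with group means as the centre. All these coefficients are over groups that share their RNA across genes, a control group and any shift of the whole group, and they describe these groups alone.

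**Figure D4:**
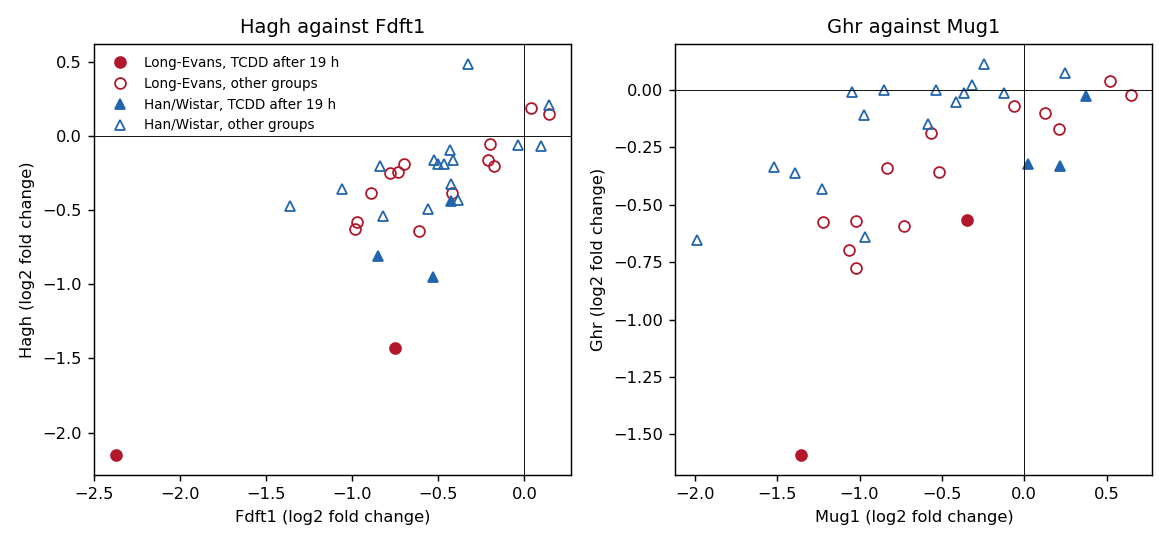
Deposited log2 fold change of Hagh against Fdft1 (left) and of Ghr against Mug1 (right), 1 point per group without corn oil at 19 h, with Long-Evans as circles, Han/Wistar as triangles and the TCDD groups after 19 h filled. The Long-Evans TCDD group at 240 h is the lowest of all points for Hagh and for Ghr, at -2.38 and -2.15 for Fdft1 and Hagh and at -1.36 and -1.59 for Mug1 and Ghr.

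Fdft1 and Mug1 were not each other's nearest target. Over all groups the rho between them was 0.44 in Long-Evans (Pearson's r 0.51) and -0.18 in Han/Wistar (Pearson's r -0.08), which puts Mug1 at place 14 of 48 targets ranked by likeness to Fdft1. Over the 8 dose groups at 19 h alone it was 0.88 in Long-Evans and 0.36 in Han/Wistar. They parted at 3 and 6 h in Long-Evans, where Mug1 stood at -0.07 and 0.12, and at 6 h in Han/Wistar, where it stood at 0.25, as the authors' deposited table gives them. At 3 h in Han/Wistar both genes were low, with Mug1 at -0.85 in the authors' deposited table. They met at 240 h in Long-Evans, where both were low. The sign in Han/Wistar depended on the scaling, at 0.52 with group means and -0.08 with group medians as the centre.

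**Figure D5:**
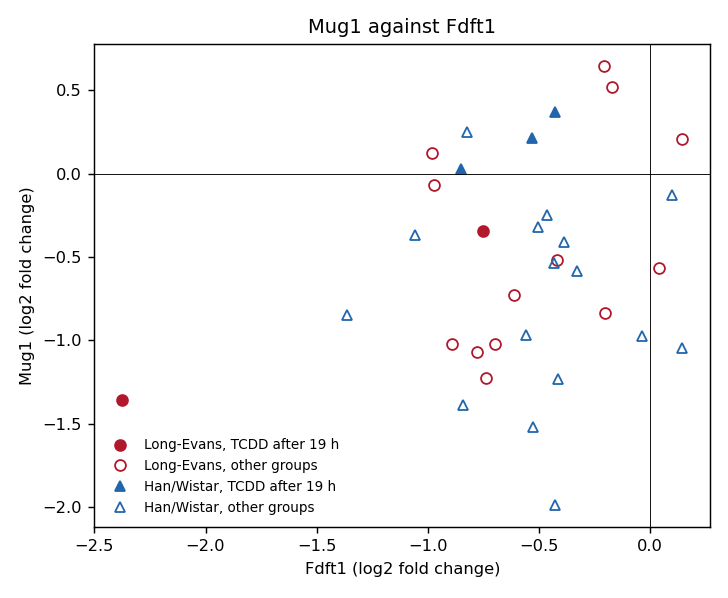
Deposited log2 fold change of Mug1 (y axis) against Fdft1 (x axis), 1 point per group without corn oil at 19 h, with Long-Evans as circles, Han/Wistar as triangles and the TCDD groups after 19 h filled. The Long-Evans group at 240 h is low for both genes (-2.38 and -1.36), whereas the lowest Han/Wistar group for Mug1 (-1.99) has a Fdft1 value of -0.43.

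The levels were also put in order over all groups and their gaps set against the SD over the corn oil groups of the strain, the only spread that can be had. For Fdft1 in Long-Evans the SD was 0.11, and the gap between the lowest group (240 h, -2.38) and the next (6 h, -0.98) in the authors' deposited table was 1.39. Another 4 of the 15 neighbouring gaps exceeded that SD. For Mug1 in Long-Evans 0 of 15 gaps exceeded the SD of 0.34: the lowest group, TCDD at 240 h (-1.36), was followed closely by 1000 µg/kg at 19 h (-1.22) in the authors' deposited table. The wide late difference of Mug1 in Long-Evans thus set a value near those of the 19 h dose groups against corn oil groups that were the highest of all. In Han/Wistar 0 of 19 gaps exceeded the SD of 0.38 for Fdft1, and 2 of 19 the SD of 0.20 for Mug1, the wider of them 0.46 between 3000 and 1000 µg/kg. That SD of Fdft1 includes the corn oil group at 1.5 h (-1.06), a time at which Long-Evans had none. Gaps between neighbours also narrow as groups are added, so a low count of wide gaps does not show that a gene was unchanged.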

How the data were processed

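Per the labels' protocols, complementary DNA made from the liver RNA of 150 samples was amplified by OpenArray real-time PCR. The deposited table holds 1 value per gene and group, taken as a log2 fold change that the authors computed with that strain's 19 h corn oil group as the zero. The submitters' processing notes name R 2.12.2. How genes were normalised and animals averaged, and the log base, were not stated in the sources at hand. From the other deposited tables only names were read. Their 304 columns of cycle values (150 and 154) carry animal codes that match no sample label and were not used. No values per animal were therefore tested, and groups are the units.

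The genes, lists and tests were chosen with earlier results of these data known. Named genes are both members, measured list members, Inmt, Fmo1, Ugt1a1, Cyp1a1 and the 3 targets most like each member by the mean over strains of Spearman's rho. Dose trends used all 40320 orders of 8 groups (5040 of 7), and a threshold of 0.05 after Benjamini-Hochberg adjustment. The procedure was tested on simulated data. The 7900HT comparison that was planned gave nothing, since neither gene is on it. The series' design text calls the replicates biological. Alternatives were centring, Pearson's r, another reference group, joint adjustment and leaving out doses. Software was scipy 1.17.1, numpy 2.4.6, pandas 2.3.3, matplotlib 3.10.9 and Biopython 1.88 under Python 3.11.15.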

Additional observations from a re-analysis of the deposited data

Results flagged for a closer look

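Mug1 was picked out because TCDD groups of the strains lay on opposite sides of corn oil at both times after 19 h that the strains share. At 96 h the difference between TCDD and corn oil was -0.87 for Long-Evans and 0.69 for Han/Wistar. At 240 h it was -2.00 for Long-Evans and 0.56 for Han/Wistar. With group means as the centre the Han/Wistar values were -0.53 and -0.44, on the same side as Long-Evans. The difference between the strains was not tested, since each group has 1 value and the gene was chosen on these times.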

How the results depend on the processing

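The files used give 1 value per group and neither animal spread nor depth. No paired analysis was possible because the deposited table holds no value per animal. Centring on group means or medians was planned, and the reference at 19 h for 96 and 384 h was added after seeing the data.

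Dose trends kept a negative sign in every alternative run. In Long-Evans Fdft1 passed with Pearson's r (-0.81), group means (-0.86), group medians (-0.88) and corn oil as the lowest dose (-0.73), and Mug1 with the same 4 (-0.77, -0.93, -0.90 and -0.78). In Han/Wistar Fdft1 passed with group medians (-0.79) and corn oil as the lowest dose (-0.82), and Mug1 with group means (-0.90), medians (-0.83) and corn oil (-0.73). Passes with means or medians carry the rise of the panel with dose. Passes with corn oil use a group that is 0 by construction and belongs to the time arm that chose the genes. With 1 dose left out the rho spanned -0.86 to -0.54 for Fdft1 and -0.93 to -0.57 for Mug1 in Long-Evans, and -0.86 to -0.64 and -0.86 to -0.43 in Han/Wistar. Without 100 µg/kg all 4 passed (adjusted exact permutation p = 0.0307, 0.0138, 0.0417 and 0.0417), and Fdft1 in Han/Wistar also without 10, 1000 or 3000 µg/kg. The count of targets lower with dose went to 21 in Long-Evans and 20 in Han/Wistar with group means and to 17 in Han/Wistar with medians, and spanned 5 to 16 and 1 to 11 with 1 dose left out, against 13 and 10 with all doses. It was lowest without 0.001 µg/kg in Long-Evans and without 1 µg/kg in Han/Wistar, and moved over 1.5 times without 0.01, 0.1 or 1 µg/kg in Long-Evans and without 0.001, 0.01, 0.1 or 3000 µg/kg in Han/Wistar. Joint adjustment over both strains, and all alternatives of the strain difference over dose, changed no call for Fdft1 or Mug1.

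Late differences moved with the centring and with the corn oil group used. With group means, group medians and corn oil at 19 h in turn, Fdft1 in Long-Evans was -1.92, -1.54 and -0.75 at 96 h and -3.85, -3.15 and -2.38 at 240 h. Mug1 in Long-Evans was -2.21, -1.83 and -0.35 at 96 h and -3.69, -2.99 and -1.36 at 240 h. Fdft1 in Han/Wistar was -1.14, -0.57 and -0.43 at 96 h, where the sign turned, -1.42, -0.82 and -0.85 at 240 h, and -1.60, -0.73 and -0.53 at 384 h. Mug1 in Han/Wistar was -0.53, 0.045 and 0.37 at 96 h, -0.44, 0.15 and 0.025 at 240 h, and -0.82, 0.047 and 0.22 at 384 h, so its sign turned with group means. The rho between the genes was 0.75, 0.75 and 0.88 in Long-Evans with means, medians and the 19 h dose groups alone, and 0.52 and 0.36 in Han/Wistar with means and with the 19 h dose groups. By Pearson's r Hagh and Ghr stayed first in likeness, at a mean of 0.69 and 0.69.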
